A study of Mus musculus with 12 samples.

Results

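Creatine kinases move a phosphate group between ATP and creatine, and so link the places where heart muscle makes ATP to the places where it spends it. The 7 genes described here were chosen by symbol: the creatine kinases Ckm, Ckmt2 and Ckb, the creatine transporter Slc6a8, the creatine-synthesis enzyme Gamt, the adenylate kinase Ak1, and Prkaa2, a catalytic subunit of the energy sensor AMP-activated protein kinase (AMPK). The choice was made with earlier results of these data known. All 7 were found among the 54146 gene records, and all 7 were among the 15477 genes with enough reads to be tested.

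In working heart muscle the mitochondrial enzyme charges creatine with phosphate beside the adenine nucleotide carrier, and the cytosolic muscle enzyme uses phosphocreatine to restore ATP beside myosin and the calcium pumps. Adenylate kinase joins a pair of ADP molecules into ATP and AMP, and a rise in AMP activates AMPK. The creatine pool of a cardiomyocyte comes mainly from the blood through Slc6a8, since heart muscle makes little creatine itself.

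Polyadenylated RNA was sequenced from mouse hearts in 3 groups of 4 libraries, each taken 6 weeks after surgery. TAC KO libraries came from Nron knockout mice after TAC, or transverse aortic constriction, a narrowing of the aorta that loads the heart with pressure. TAC WT libraries came from Nron wild-type mice after the same operation, and Sham WT libraries from Nron wild-type mice after a sham operation. Nron is a long noncoding RNA. Knockout hearts after a sham operation were not analysed here, so TAC KO differs from Sham WT in both genotype and surgery, and TAC KO differs from TAC WT in genotype after TAC. The strain, sex and age of the mice, the way the allele was made and the cells it acts in are not given in the sources used here. Whether each library is a separate animal is not stated in the labels, and the tests measure only how far these libraries spread.

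The libraries held 28565856 to 35777820 counts in TAC KO, 26288519 to 35945770 in TAC WT and 27596898 to 35491024 in Sham WT. Both Nron records had 0 counts in all 12 libraries, which allows up to 3 counts per library, or 0.0835 to 0.114 counts-per-million (CPM), so the targeted RNA does not check the genotype labels here. Ventricular cardiomyocyte markers were abundant in every library, at summed levels of 64370 to 69240 CPM in TAC KO, 64220 to 69140 in TAC WT and 71430 to 82550 in Sham WT, and 3 of these 8 markers fell and 0 rose in each TAC group relative to Sham WT, while 2 rose and 0 fell in TAC KO relative to TAC WT. Of all tested genes 12.8% rose and 14.8% fell in TAC KO relative to Sham WT, and 9.67% rose and 10.0% fell in TAC WT. In TAC KO relative to TAC WT 15.7% rose and 17.3% fell, and the 2 of 8 risen markers are near the share risen. The TAC KO libraries stood apart in base composition. Relative to the mean of all libraries, the median log2 level of the GC-richest quintile of genes exceeded that of the GC-poorest by 0.43, 0.12, 0.10 and 0.12 in TAC KO libraries 1 to 4, against -0.15 to -0.06 in TAC WT and -0.12 to -0.04 in Sham WT. Long transcripts were also lower relative to short ones, at -0.26 to -0.15 in TAC KO, against -0.04 to 0.19 in TAC WT and -0.00 to 0.15 in Sham WT. Fold changes of TAC KO are therefore followed by a further value after GC and length correction. For it each library's trend with GC content and transcript length was removed. All TAC KO libraries shared this composition, so knockout and library composition cannot be told apart here. The correction can also remove differences of the knockout that follow GC content or length. Which of them a call that ends after it reflects was not tested.

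The 3 kinase genes are shown first by the DNA before their start sites, because they encode the creatine kinases among the members. The sequences are RefSeq's for GRCm38.p6, printed 5′ to 3′ on the strand of the gene, and capitals mark the motif matches named below.
Ckm, chr7:19410844-19411024, plus strand: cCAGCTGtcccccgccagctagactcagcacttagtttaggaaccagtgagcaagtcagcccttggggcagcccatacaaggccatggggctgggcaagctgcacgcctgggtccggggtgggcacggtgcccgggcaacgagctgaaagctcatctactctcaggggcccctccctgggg
Ckmt2, chr13:91876886-91877135, minus strand: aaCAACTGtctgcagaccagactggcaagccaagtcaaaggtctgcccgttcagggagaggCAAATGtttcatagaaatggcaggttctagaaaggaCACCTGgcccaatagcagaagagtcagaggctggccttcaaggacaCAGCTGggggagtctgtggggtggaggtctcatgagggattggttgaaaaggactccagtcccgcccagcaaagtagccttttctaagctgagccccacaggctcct
Ckb, chr12:111672339-111672588, minus strand: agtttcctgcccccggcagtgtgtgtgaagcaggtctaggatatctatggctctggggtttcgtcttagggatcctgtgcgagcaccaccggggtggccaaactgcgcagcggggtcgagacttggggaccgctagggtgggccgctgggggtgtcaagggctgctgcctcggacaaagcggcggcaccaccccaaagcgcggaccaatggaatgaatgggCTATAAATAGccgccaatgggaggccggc

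The windows hold the 250 bases before each RefSeq start, and the Ckm sequence is cut to the 181 bases that lie outside GENCODE exons. That stretch lies in an intron of a Ckm transcript that starts further upstream. Each window was searched on both strands for 4 motifs. An E-box, CANNTG, the site of myogenic basic helix-loop-helix factors, was found once in the Ckm window, 249 bases before the start, and 4 times in the Ckmt2 window, 248, 189, 153 and 107 bases before it. The Ckb window held no E-box, but a TATA box, TATAAA, 28 bases before the start, inside a match to the element of the muscle factor MEF2, searched as CTA and TAG with any 4 bases between them and read CTATAAATAG. Neither of these exact motifs was found in the Ckm or Ckmt2 window. The part of the Ckm window that is not printed holds the related string TATATAA, which a search for TATAAA does not match. The Ckm window is therefore not shown to lack a TATA box. The motif TNAAGGTCA of the estrogen-related receptors, which act on genes of energy metabolism, was found in none of the 3. Of 32851 RefSeq promoters of the same length, 66.2% held the E-box, 12.4% the TATA box, 3.20% the MEF2 element and 1.14% the estrogen-related receptor element. RefSeq entries were matched for 6 of the 7 genes; Slc6a8 is the seventh.

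In TAC KO hearts Ckm, Ak1 and Gamt were higher than in TAC WT hearts, and in TAC WT hearts Ckm and Ak1 were lower than in Sham WT hearts. The Gamt difference and the Ak1 decrease in TAC WT each failed to pass without any 1 of 4 libraries. The Gamt difference also did not pass after GC and length correction. Ckm was also higher in TAC KO than in Sham WT, whereas for Ak1 that difference did not pass. Ckmt2, the mitochondrial kinase, passed in none of the 3 comparisons. Calls were made in edgeR's quasi-likelihood test at an adjusted p (Benjamini-Hochberg, over all tested genes) of less than 0.05. Of the 7 genes, 3 rose and 0 fell in TAC KO relative to TAC WT, where 15.7% of all tested genes rose and 17.3% fell. In TAC KO relative to Sham WT 4 rose and 0 fell, where 12.8% of all tested genes rose and 14.8% fell. In TAC WT relative to Sham WT 0 rose and 2 fell, where 9.67% rose and 10.0% fell. The median log2 fold change of the 7 was 0.21, 0.24 and -0.02 in these comparisons, against -0.00, 0.00 and -0.00 over all tested genes. The comparisons share libraries, so they are set side by side and not counted as independent of each other. Because the genes and lists were chosen with earlier results of these data known, the shares of all tested genes are a background and not a test.

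Counts near the threshold moved with the test. At an unadjusted p under 0.05, 4 of the 7 rose and 0 fell in TAC KO relative to TAC WT, where 21.0% of all tested genes rose and 22.4% fell. Relative to Sham WT, 4 rose and 1 fell in TAC KO, against 18.9% and 21.2% of all genes, and 1 rose and 2 fell in TAC WT, against 16.5% and 16.6%. DESeq2 gave 4 risen and 0 fallen in TAC KO relative to TAC WT, 4 and 0 in TAC KO relative to Sham WT, and 1 and 2 in TAC WT relative to Sham WT, and called 33.8%, 28.9% and 21.6% of all tested genes in either direction. After GC and length correction edgeR gave 2 risen and 0 fallen, 3 and 0, and 0 and 2 in the same order, and called 26.2%, 21.4% and 22.4% of all genes in either direction.

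**Figure D1:**
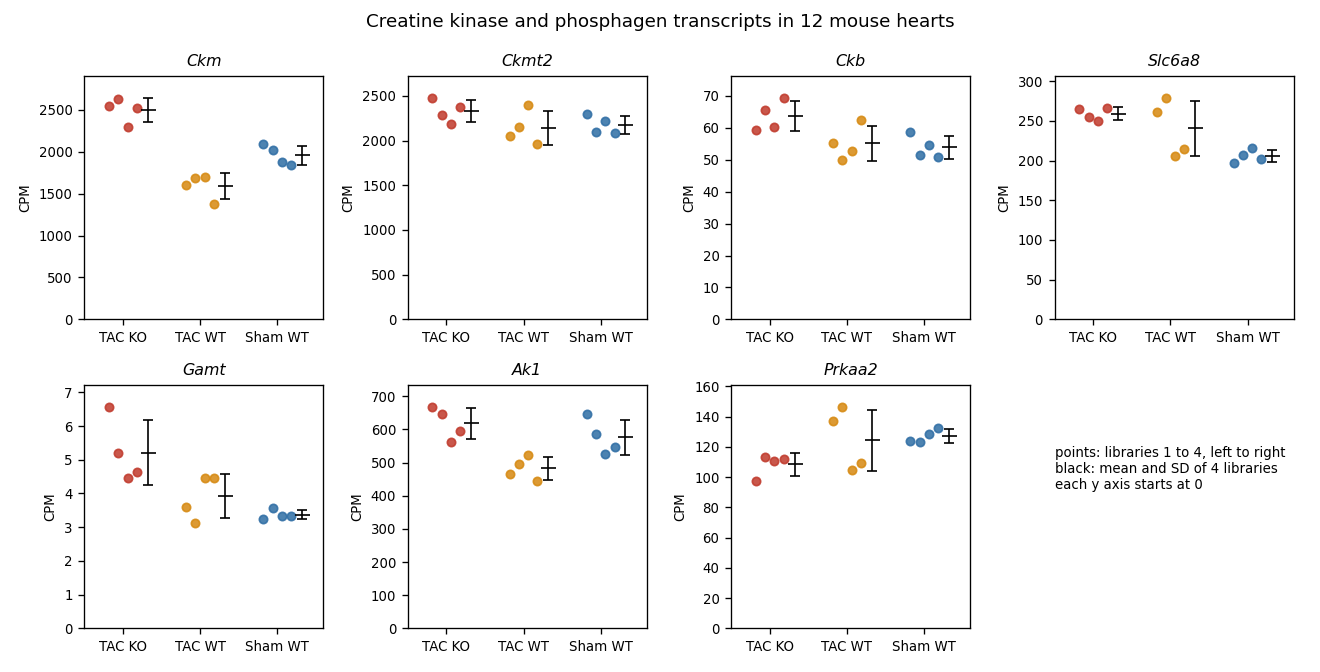
CPM (vertical axes, each from 0) of the 7 genes in TAC KO, TAC WT and Sham WT; coloured points are libraries 1 to 4 from left to right, and black marks are the mean and SD of 4 libraries. The TAC KO points of Ckm lie at 2295 to 2627 CPM and the TAC WT points at 1372 to 1704 CPM, with Sham WT between them, while the Ckmt2 points of the 3 groups overlap.

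Ckm encodes the cytosolic muscle-type creatine kinase, which sits at the sarcomere (ENSMUSG00000030399.2, GRCm38 chr7:19404776-19422841, plus strand). It had 2548, 2627, 2295 and 2523 CPM in TAC KO, against 1600, 1682, 1704 and 1372 CPM in TAC WT and 2089, 2018, 1878 and 1842 CPM in Sham WT. The 3 groups did not overlap in any pair: TAC KO was highest and TAC WT lowest. Non-overlapping groups with the first named higher were seen for 13.3% of all tested genes in TAC KO against TAC WT and for 14.3% in TAC KO against Sham WT, and with TAC WT lower than Sham WT for 12.7%. These shares are also the background for the genes below whose groups do not overlap in the same directions. Group means were 2498 ± 142.6 CPM in TAC KO, 1589 ± 151.4 in TAC WT and 1957 ± 116.2 in Sham WT (SD, n = 4 each).

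Ckm rose in TAC KO relative to TAC WT by 0.65 on the log2 scale (SE 0.08), which is 1.57-fold, with an edgeR adjusted p of 8.225e-05. It rose relative to Sham WT by 0.35 (SE 0.08, adjusted p = 0.004757), and it fell in TAC WT relative to Sham WT by 0.30 (SE 0.08, adjusted p = 0.01441). After GC and length correction the log2 fold changes were 0.54, 0.24 and -0.30, with adjusted p of 0.000371, 0.0374 and 0.0125, so all 3 calls held. They also held when each library was left out in turn, with highest adjusted p of 0.000416, 0.0216 and 0.0477. Without TAC KO library 1, whose base composition was the most distant, the log2 fold changes against TAC WT and Sham WT were 0.64 and 0.35.

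Ckm is also abundant in skeletal muscle, and a list of 8 skeletal muscle markers was therefore summed in each library. The sum was 18.6 CPM in TAC WT library 4, against at most 3.66 CPM in the other 11 libraries; by group it was 2.44 to 3.31 CPM in TAC KO, 2.52 to 18.6 in TAC WT and 2.41 to 2.89 in Sham WT. None of the 8 was at 0 in all libraries, and Myh1 and Myh2 were under 1 CPM everywhere. Of the 3 markers with enough reads to be tested, 1 fell in TAC KO relative to TAC WT and 1 rose in TAC WT relative to Sham WT. Among all tested genes 17.3% fell and 9.67% rose in those comparisons. TAC WT library 4 had the lowest Ckm level of all. Without it Ckm was 0.59 higher in TAC KO than in TAC WT on the log2 scale (adjusted p = 0.000178) and 0.23 lower in TAC WT than in Sham WT (adjusted p = 0.0404).

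In bulk tissue, fewer cells of a type and less RNA per cell cannot be told apart. Markers of other cell types also differed between the groups. The summed level of 7 fibroblast markers was 732 to 1001 CPM in TAC KO, 650 to 838 in TAC WT and 584 to 650 in Sham WT; 2 of the 7 rose in TAC KO relative to TAC WT and 5 relative to Sham WT, 3 rose in TAC WT relative to Sham WT, 0 fell in any of these, and none was at 0 everywhere. The shares of all tested genes that rose in these comparisons were 15.7%, 12.8% and 9.67%, and those that fell 17.3%, 14.8% and 10.0%. The sum of 8 leukocyte markers was 202 to 284 CPM, 144 to 228 and 153 to 199 in the same order of groups, with 3 risen in TAC KO relative to TAC WT, 4 risen in TAC KO relative to Sham WT and 0 changed in TAC WT relative to Sham WT. The sum of 7 endothelial markers was 1322 to 1625, 1593 to 1849 and 1515 to 1766 CPM, with 2 fallen in TAC KO relative to each other group and 0 changed in TAC WT relative to Sham WT. Of 8 smooth muscle and pericyte markers, whose sums were 1132 to 1259, 1126 to 1509 and 1287 to 1444 CPM, 4 rose and 1 fell in TAC KO relative to TAC WT, 3 rose and 2 fell relative to Sham WT, and 1 rose and 1 fell in TAC WT relative to Sham WT. Sums of 5 atrial markers were 20.2 to 22.5, 16.5 to 20.2 and 22.3 to 27.8 CPM, with Myl7 and Sln under 1 CPM in every library. Of the 3 atrial markers tested, 1 rose and 1 fell in TAC KO relative to TAC WT and 1 fell in each TAC group relative to Sham WT. Sums of 7 neuron and glia markers were 5.33 to 7.81, 6.31 to 8.78 and 8.65 to 10.1 CPM, with Th, Rbfox3 and Snap25 among those under 1 CPM in every library. Of the 3 neuron and glia markers tested, 1 fell in each of the 3 comparisons. Sums of 5 blood genes overlapped between all groups, at 383 to 509, 310 to 693 and 329 to 492 CPM, and all 5 adipocyte markers were under 1 CPM in every library. The part of these cell types in the levels of the 7 genes was not tested.

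Ckmt2 encodes the sarcomeric mitochondrial creatine kinase, which lies between the mitochondrial membranes (ENSMUSG00000021622.3, chr13:91853387-91876885, minus strand). It had 2476, 2292, 2183 and 2375 CPM in TAC KO, 2049, 2155, 2398 and 1964 CPM in TAC WT, and 2298, 2102, 2223 and 2084 CPM in Sham WT. The 3 groups overlapped. Its log2 fold change was 0.12 in TAC KO relative to TAC WT, with a 95% interval of -0.03 to 0.28 and an adjusted p of 0.2118. It was 0.10 relative to Sham WT (-0.06 to 0.25, adjusted p = 0.332) and -0.02 for TAC WT relative to Sham WT (-0.18 to 0.13, adjusted p = 0.8565). After GC and length correction the TAC KO values were 0.01 relative to TAC WT (adjusted p = 0.898) and -0.02 relative to Sham WT (adjusted p = 0.871).

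The ratio of Ckm to Ckmt2 counts within a library does not depend on how libraries are scaled to each other. It was 1.03, 1.15, 1.05 and 1.06 in TAC KO, against 0.781, 0.780, 0.711 and 0.699 in TAC WT and 0.909, 0.960, 0.845 and 0.884 in Sham WT. No TAC KO library had a ratio as low as any Sham WT library, and no TAC WT library one as high. The means were 1.07 ± 0.0514 in TAC KO, 0.743 ± 0.0442 in TAC WT and 0.899 ± 0.0482 in Sham WT (SD, n = 4 each). These ratios are given as a description, without a test.

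**Figure D2:**
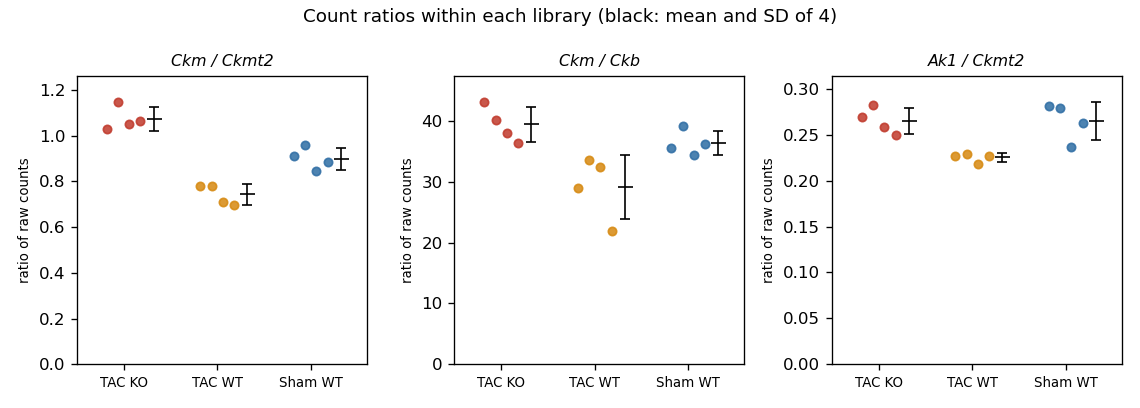
Ratios of raw counts within each library (vertical axes, from 0) for Ckm to Ckmt2, Ckm to Ckb and Ak1 to Ckmt2 in TAC KO, TAC WT and Sham WT; points are libraries 1 to 4, and black marks are the mean and SD of 4. The Ckm to Ckmt2 ratio separates the 3 groups, at 1.03 to 1.15, 0.699 to 0.781 and 0.845 to 0.960, and the Ak1 to Ckmt2 ratio is lowest in TAC WT.

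Ckb encodes the brain-type cytosolic creatine kinase, which is prominent in embryonic heart and is a minor isoform in adult muscle (ENSMUSG00000001270.9, chr12:111669361-111672338, minus strand). It had 59.2, 65.6, 60.3 and 69.3 CPM in TAC KO, 55.4, 49.99, 52.7 and 62.6 CPM in TAC WT, and 58.8, 51.6, 54.5 and 50.8 CPM in Sham WT. TAC KO did not overlap Sham WT, while TAC WT library 4 reached into the TAC KO range. Ckb rose in TAC KO relative to Sham WT by 0.24 (SE 0.08, adjusted p = 0.03584). This call ended after GC and length correction (log2 0.09, adjusted p = 0.474). It also ended without TAC KO library 2 or 4 (adjusted p = 0.0778 and 0.109) and without Sham WT library 2, 3 or 4 (adjusted p = 0.0941, 0.0707 and 0.102).

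Against TAC WT the Ckb difference in TAC KO was 0.21 (SE 0.08, adjusted p = 0.05658), just above the threshold of 0.05. It passed in DESeq2 (adjusted p = 0.0449), in limma voom with quality weights (0.0382), with upper-quartile scaling (0.0367) and without TAC WT library 4 (0.0179). After GC and length correction it was 0.04 (adjusted p = 0.764). TAC WT and Sham WT differed by 0.03 (95% interval -0.14 to 0.20, adjusted p = 0.8173). A pseudogene, Gm12892, is 96.8% identical to Ckb over 77.9% of its length and had 0 counts in every library; reads that fit both could have been lost from Ckb, so its level is uncertain.

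Expressed as a share of Ckm counts, Ckb made up 2.55% ± 0.183 in TAC KO, 3.52% ± 0.724 in TAC WT and 2.76% ± 0.148 in Sham WT (SD, n = 4 each). The TAC WT libraries held 3.46%, 2.97%, 3.09% and 4.56%, all above the 2.32% to 2.75% of TAC KO and the 2.55% to 2.90% of Sham WT. The highest value was again that of TAC WT library 4. Ckmt1, the ubiquitous mitochondrial creatine kinase of brain and epithelia, had 0.0286 to 0.289 CPM in TAC KO, 0.110 to 0.339 in TAC WT and 0.0595 to 0.147 in Sham WT, too few reads to be tested.

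Levels of different genes were compared per kilobase of the principal GENCODE transcript. On this scale Ckmt2 led with 1569 ± 83.9 CPM per kb in TAC KO, 1441 ± 126.4 in TAC WT and 1465 ± 68.3 in Sham WT (SD, n = 4 each). Ckm followed with 911 ± 52.0, 580 ± 55.2 and 714 ± 42.4 CPM per kb, then Ak1 with 296 ± 23.0, 231 ± 16.5 and 277 ± 25.2. The order below these was Slc6a8 at 78.2, 72.6 and 62.0 CPM per kb, Ckb at 43.2, 37.5 and 36.6, Prkaa2 at 13.6, 15.6 and 15.9, and Gamt at 5.28, 3.96 and 3.42. Within each group the ranges of neighbouring genes in this order did not overlap.

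The order of Ckm and Ckmt2 depended on which length was used, and so did that of Ckb and Prkaa2. The principal Ckm transcript is 2742 bases long and its coding part 1143 bases, while Ckmt2 has 1486 and 1257 bases. Per kilobase of coding length Ckm had 2186 ± 124.8 CPM in TAC KO against 1855 ± 99.2 for Ckmt2. In TAC WT the order was the other way, at 1391 ± 132.5 for Ckm and 1704 ± 149.4 for Ckmt2, and in Sham WT the ranges of the pair overlapped, at 1712 ± 101.7 and 1732 ± 80.8. The principal Prkaa2 transcript has 7969 bases, of which 1656 are coding. Per kilobase of coding length Prkaa2 had 65.43, 75.05 and 76.77 CPM in TAC KO, TAC WT and Sham WT. Ckb was lower, at 55.65, 48.26 and 47.17, and the ranges of these genes overlapped only in TAC KO. By coding length Ckm made up 53.4% ± 1.13 of creatine kinase transcripts in TAC KO, 44.2% ± 1.51 in TAC WT and 49.0% ± 1.33 in Sham WT. By principal transcript length the shares were 36.1% ± 1.06, 28.2% ± 1.23 and 32.2% ± 1.17. With either length the Ckm share was highest in TAC KO and lowest in TAC WT, and Ckb was at most 2.28% in any library.

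Slc6a8 encodes the creatine transporter of the plasma membrane (ENSMUSG00000019558.14, chrX:73673150-73682502, plus strand). It had 265, 255, 250.2 and 266 CPM in TAC KO, 262, 279, 206 and 215 CPM in TAC WT, and 197, 207, 215 and 202 CPM in Sham WT. TAC KO lay above every Sham WT library, whereas TAC WT spread from the Sham WT range to above that of TAC KO. Slc6a8 rose in TAC KO relative to Sham WT by 0.34 (SE 0.09, adjusted p = 0.01022), with a highest adjusted p of 0.0305 when a library was left out and 0.0403 after GC and length correction (log2 0.27).

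The Slc6a8 difference between TAC WT and Sham WT was 0.23 (SE 0.09, adjusted p = 0.07509) and did not pass in edgeR. It passed in DESeq2 (adjusted p = 0.0498), in limma voom with quality weights (0.023), and without TAC WT library 3 (log2 0.30, adjusted p = 0.0181) or 4 (0.28, 0.0437). Those are the 2 TAC WT libraries with low Slc6a8. TAC KO and TAC WT differed by 0.11, with a 95% interval of -0.07 to 0.29 (adjusted p = 0.3541), and by 0.04 after GC and length correction (adjusted p = 0.779). The call of Slc6a8 was between TAC KO and Sham WT, the pair that differs in both surgery and genotype.

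Gamt encodes guanidinoacetate methyltransferase, the last enzyme of creatine synthesis (ENSMUSG00000020150.13, chr10:80258151-80261012, minus strand). It was the lowest of the 7, with 6.56, 5.21, 4.45 and 4.64 CPM in TAC KO, 3.61, 3.14, 4.46 and 4.45 CPM in TAC WT, and 3.24, 3.58, 3.34 and 3.34 CPM in Sham WT. Every TAC KO library was above every Sham WT library, but TAC WT libraries 3 and 4 lay at the level of TAC KO library 3. Gamt rose in TAC KO relative to Sham WT by 0.62 (SE 0.14, adjusted p = 0.005959), and by 0.41 after GC and length correction (adjusted p = 0.0295). Without TAC KO library 1 it was 0.50 (adjusted p = 0.0162).

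Gamt also rose in TAC KO relative to TAC WT, by 0.41 (SE 0.14, adjusted p = 0.0372), but this call rested on single libraries. Without TAC KO library 1 it was 0.28 (adjusted p = 0.13), without TAC KO library 2 0.41 (0.0668), without TAC WT library 1 0.37 (0.0989) and without TAC WT library 2 0.32 (0.0974). It also ended after GC and length correction (log2 0.20, adjusted p = 0.249) and when only these 2 groups were fitted (adjusted p = 0.08). Gatm, which makes guanidinoacetate in the step before Gamt and is a kidney enzyme foremost, had 0.378 to 1.16 CPM in TAC KO, 0.339 to 0.574 in TAC WT and 0.446 to 0.587 in Sham WT, and passed in no comparison.

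**Figure D3:**
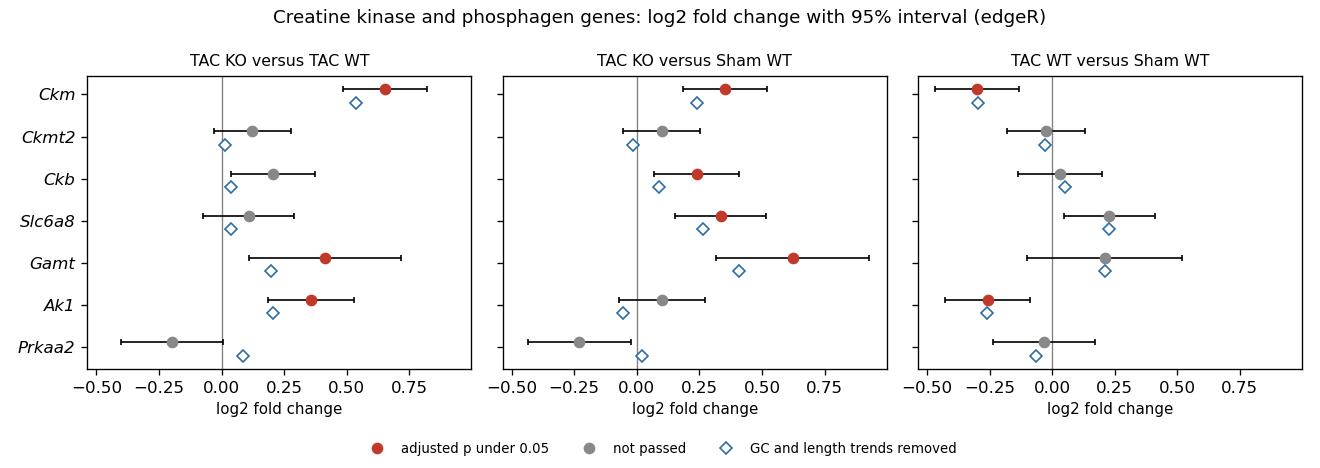
Log2 fold changes of the 7 genes (horizontal axes) in the 3 comparisons; filled points with bars are edgeR estimates and 95% intervals, red where the adjusted p is under 0.05 and grey where it is not, and open diamonds are the estimates after GC and length correction. Ckm stands at 0.65, 0.35 and -0.30, and in both TAC KO panels the diamonds of all genes except Prkaa2 lie left of the filled points, while in the panel without TAC KO they lie close to them.

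Ak1 encodes the main cytosolic adenylate kinase of muscle (ENSMUSG00000026817.14, chr2:32621758-32635058, plus strand). It had 667, 648, 563 and 594 CPM in TAC KO, against 465, 494, 524 and 446 CPM in TAC WT and 646, 588, 527 and 547 CPM in Sham WT. All TAC WT libraries lay below all libraries of both other groups, and TAC KO and Sham WT overlapped. Ak1 rose in TAC KO relative to TAC WT by 0.36 (SE 0.08, adjusted p = 0.004088), with a highest adjusted p of 0.0145 when a library was left out. After GC and length correction it was 0.21, with an adjusted p of 0.0482.

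Ak1 fell in TAC WT relative to Sham WT by 0.26 (SE 0.08, adjusted p = 0.03428), and by 0.26 after GC and length correction (adjusted p = 0.0186). The call ended without Sham WT library 1 (log2 -0.19, adjusted p = 0.116) or 2 (-0.24, 0.0879), and without TAC WT library 1 (-0.24, 0.0925) or 4 (-0.22, 0.0986). TAC KO and Sham WT differed by 0.10 (95% interval -0.07 to 0.27, adjusted p = 0.3779), and by -0.05 after GC and length correction (adjusted p = 0.637). The ratio of Ak1 to Ckmt2 counts was 0.265 ± 0.0142 in TAC KO, 0.225 ± 0.00469 in TAC WT and 0.265 ± 0.0205 in Sham WT (SD, n = 4 each).

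Of the 9 adenylate kinase genes 5 were tested. Ak3, the GTP-using enzyme of the mitochondrial matrix, rose in TAC KO relative to TAC WT by 0.32 (adjusted p = 0.007245) and relative to Sham WT by 0.30 (adjusted p = 0.01187), with 115 to 144 CPM in TAC KO, 94.8 to 113 in TAC WT and 99.2 to 112 in Sham WT. The values after GC and length correction were 0.29 and 0.28. Ak4, a second matrix enzyme that is induced by low oxygen, fell in TAC KO relative to Sham WT by 0.41 (adjusted p = 0.007401, -0.37 after correction), with 27.9 to 37.2 CPM in TAC KO and 39.7 to 45.7 in Sham WT. Ak6, a nuclear enzyme, passed in no comparison. The list thus had 2 risen and 0 fallen in TAC KO relative to TAC WT, 1 and 1 relative to Sham WT, and 0 and 1 in TAC WT relative to Sham WT, with median log2 fold changes of 0.12, 0.08 and -0.12. In the same order, 15.7% and 17.3%, 12.8% and 14.8%, and 9.67% and 10.0% of all tested genes rose and fell. Ak1 is among the list's counts.

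Prkaa2 encodes the alpha2 catalytic subunit of AMPK, the main one in heart and skeletal muscle (ENSMUSG00000028518.8, chr4:105029874-105109890, minus strand). It had 97.6, 114, 110.4 and 112 CPM in TAC KO, 137, 146, 104 and 109.6 CPM in TAC WT, and 124, 123, 129 and 133 CPM in Sham WT. TAC KO lay below every Sham WT library, while TAC WT libraries 1 and 2 were above the Sham WT range and libraries 3 and 4 below it. Groups with TAC KO below Sham WT were seen for 16.3% of all tested genes. The log2 fold change was -0.23 in TAC KO relative to Sham WT (SE 0.10, adjusted p = 0.08777) and -0.20 relative to TAC WT (SE 0.10, adjusted p = 0.128), and neither passed.

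Both Prkaa2 values turned positive after GC and length correction, at 0.02 (adjusted p = 0.874) and 0.08 (adjusted p = 0.429). Prkaa2 has the lowest GC content of the 7 genes, 40.7%, and the longest transcript, 7969 bases; the GC contents of the others run from 50.5% to 61.7%. The difference from Sham WT passed without TAC WT library 2 (adjusted p = 0.0493) and when only these 2 groups were fitted (0.0176), and that from TAC WT passed without TAC WT library 3 (log2 -0.27, adjusted p = 0.0321). TAC WT and Sham WT differed by -0.03 (95% interval -0.24 to 0.17, adjusted p = 0.852).

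Prkaa2 and Slc6a8 both split the TAC WT libraries into 1 and 2, which were high, and 3 and 4, which were low. Their coefficients of variation in TAC WT were 16.4% and 14.6%, against 6.76% and 2.99% in TAC KO and 3.54% and 3.74% in Sham WT. No label separates these libraries, but their composition differed. Long transcripts relative to short ones stood at 0.192 and 0.188 in TAC WT libraries 1 and 2, and at -0.035 and 0.095 in 3 and 4. The gap between GC-richest and GC-poorest genes was -0.12 and -0.149 in libraries 1 and 2, and -0.091 and -0.061 in 3 and 4. The part of composition in the levels of either gene was not tested.

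AMPK is a trimer of an alpha, a beta and a gamma subunit, and its beta subunits moved in opposite directions. Prkab1, the beta1 subunit, had 43.1, 38.0, 34.5 and 36.1 CPM in TAC KO, against 23.5, 26.5, 22.6 and 23.9 CPM in TAC WT and 33.9, 37.0, 39.1 and 32.9 CPM in Sham WT. Prkab2, the beta2 subunit that predominates in muscle, had 53.0, 64.4, 52.3 and 46.2 CPM in TAC KO, against 82.4, 83.1, 72.3 and 101 CPM in TAC WT and 44.7, 57.1, 51.6 and 56.0 CPM in Sham WT. The TAC WT libraries stood apart from both other groups for each gene, low for Prkab1 and high for Prkab2. In the directions of Prkab1, 13.3% of all tested genes had TAC KO wholly above TAC WT, and 12.7% had TAC WT wholly below Sham WT. The shares in the directions of Prkab2 were not counted.

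Prkab1 rose in TAC KO relative to TAC WT by 0.65 (SE 0.08, adjusted p = 0.0001004) and fell in TAC WT relative to Sham WT by 0.57 (SE 0.08, adjusted p = 0.0002642). Prkab2 fell in TAC KO relative to TAC WT by 0.65 (SE 0.11, adjusted p = 0.0008902) and rose in TAC WT relative to Sham WT by 0.69 (SE 0.11, adjusted p = 0.0007958). After GC and length correction the Prkab1 values were 0.49 and -0.57, and the Prkab2 values -0.55 and 0.69, and all 4 calls held, as they did when each library was left out in turn. TAC KO relative to Sham WT did not pass for Prkab1 (log2 0.08, 95% interval -0.09 to 0.26) or Prkab2 (0.04, -0.20 to 0.29), and the corrected values were -0.08 and 0.14.

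**Figure D4:**
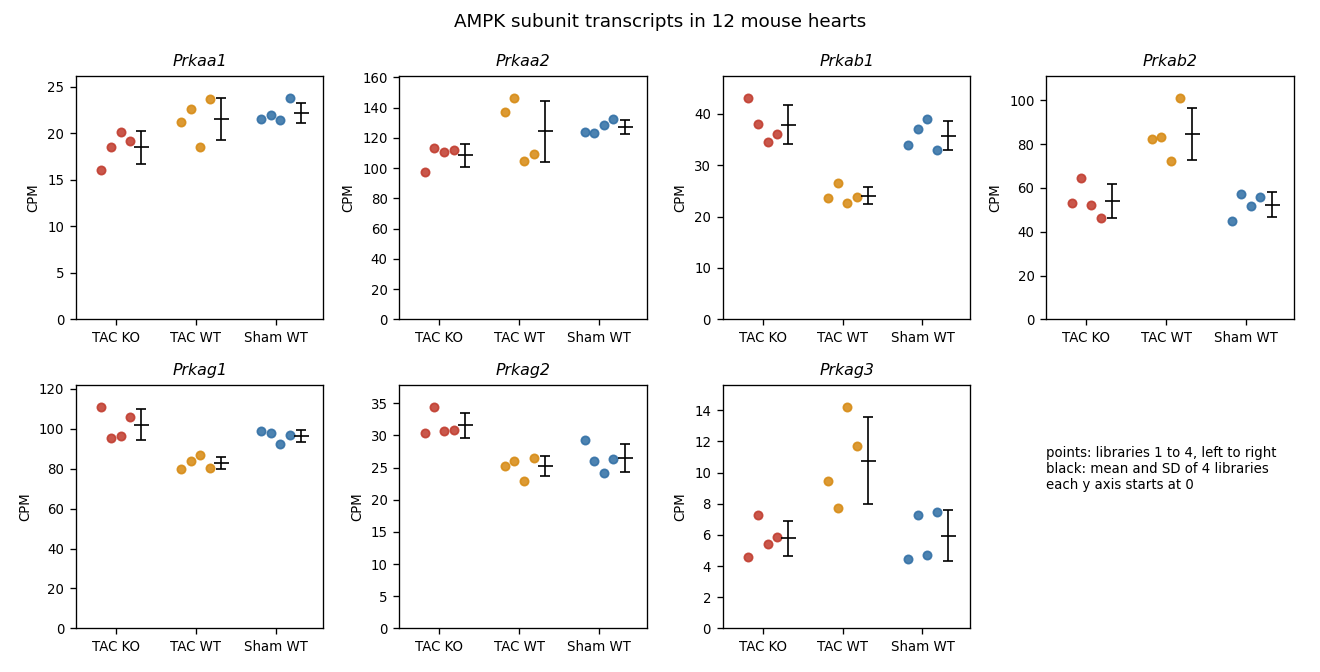
CPM (vertical axes, each from 0) of the 7 AMPK subunit genes in TAC KO, TAC WT and Sham WT; coloured points are libraries 1 to 4 and black marks the mean and SD of 4 libraries. The TAC WT points of Prkab1 lie at 22.6 to 26.5 CPM, below both other groups, and those of Prkab2 at 72.3 to 101 CPM, above them.

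Among the gamma subunits, which bind AMP, Prkag1 rose in TAC KO relative to TAC WT by 0.30 (adjusted p = 0.002109) and by 0.17 after GC and length correction (adjusted p = 0.0239). Prkag2 rose in TAC KO relative to Sham WT by 0.26 (adjusted p = 0.01788) and by 0.24 after correction (adjusted p = 0.0262). The Prkag2 call ended without TAC KO library 2 or Sham WT library 3 (adjusted p up to 0.0667). Prkag3, the gamma subunit typical of skeletal muscle, had 4.60, 7.30, 5.39 and 5.87 CPM in TAC KO, 9.46, 7.76, 14.2 and 11.7 CPM in TAC WT, and 4.46, 7.25, 4.69 and 7.44 CPM in Sham WT. It rose in TAC WT relative to Sham WT by 0.86 (SE 0.21, adjusted p = 0.009806), a call that no left-out library ended, TAC WT library 4 with its skeletal muscle markers included. Chosen after their values were seen, Prkag3 in TAC KO relative to TAC WT fell by 0.89 (adjusted p = 0.005218, -0.99 after correction) and Prkag2 rose by 0.33 (adjusted p = 0.003921, 0.30 after correction), while Prkag1 in TAC WT relative to Sham WT fell by 0.22 (adjusted p = 0.01959), a call that ended without Sham WT library 1 or 2 or TAC WT library 1 or 4 (adjusted p up to 0.0585). Prkaa1, the alpha1 subunit, fell in TAC KO relative to Sham WT by 0.26 (adjusted p = 0.03502), but the call ended after GC and length correction (log2 -0.04, adjusted p = 0.709) and without any of 8 libraries (TAC KO 1, 2 and 4, TAC WT 1 and Sham WT 1 to 4), with adjusted p up to 0.108. Of the 7 subunits 3 rose and 2 fell in TAC KO relative to TAC WT, 1 rose and 1 fell relative to Sham WT, and 2 rose and 2 fell in TAC WT relative to Sham WT, with median log2 fold changes of -0.20, 0.04 and -0.04. Among all tested genes the shares risen and fallen were 15.7% and 17.3%, 12.8% and 14.8%, and 9.67% and 10.0%, so the 1 and 1 of 7 relative to Sham WT are near those shares.

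Of 7 kinases and partners that act upstream of AMPK, 0 rose and 1 fell in TAC KO relative to TAC WT, and 1 rose in each comparison with Sham WT, with median log2 fold changes of -0.04, 0.05 and 0.17. Single genes in a list of 7 are near the shares of all tested genes that fell in TAC KO relative to TAC WT, 17.3%, and rose relative to Sham WT, 12.8% in TAC KO and 9.67% in TAC WT. The gene that fell was Map3k7, the kinase TAK1, by 0.23 (adjusted p = 0.01234; after GC and length correction -0.08, adjusted p = 0.194). The gene that rose was Stradb, a partner of the kinase LKB1, by 0.27 in TAC KO (adjusted p = 0.01033, 0.37 after correction) and by 0.23 in TAC WT (adjusted p = 0.03193), each relative to Sham WT. The TAC WT value of Stradb lost its call without Sham WT library 1, 3 or 4 or TAC WT library 1 or 2 (adjusted p up to 0.0724). Stk11, which encodes LKB1 itself, did not pass, at 138 to 157 CPM in TAC KO, 129 to 143 in TAC WT and 136 to 147 in Sham WT, with an edgeR adjusted p of 0.06425 and a DESeq2 adjusted p of 0.0271 between TAC KO and TAC WT (log2 0.15, and 0.04 after correction).

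Of 10 AMPK substrates 4 rose and 0 fell in TAC KO relative to TAC WT, 1 and 0 relative to Sham WT, and 0 and 2 in TAC WT relative to Sham WT, with median log2 fold changes of 0.13, 0.06 and -0.09. Of all tested genes 15.7% rose and 17.3% fell in the first of these comparisons, 12.8% and 14.8% in the next and 9.67% and 10.0% in the last, and the 1 of 10 relative to Sham WT is below that share. Ulk1, the kinase that starts autophagy, had 108.9, 99.9, 84.7 and 92.2 CPM in TAC KO, against 68.5, 71.2, 52.3 and 51.0 CPM in TAC WT and 73.9, 78.8, 74.8 and 68.7 CPM in Sham WT. It rose in TAC KO relative to TAC WT by 0.66 (SE 0.11, adjusted p = 0.0005997) and relative to Sham WT by 0.38 (adjusted p = 0.01846), the last ending without Sham WT library 4 (adjusted p = 0.057), and the corrected values were 0.63 and 0.34. Tbc1d4, a brake on glucose transporter traffic that AMPK phosphorylates, had 81.3, 77.4, 82.0 and 87.1 CPM in TAC KO, against 57.6, 73.5, 44.1 and 54.6 CPM in TAC WT and 77.9, 92.9, 92.4 and 90.0 CPM in Sham WT. All 4 TAC WT libraries lay below every library of both other groups. TAC WT lay wholly below TAC KO for 13.3% of all tested genes and wholly below Sham WT for 12.7%. Tbc1d4 rose in TAC KO relative to TAC WT by 0.51 (adjusted p = 0.004589, 0.62 after correction) and fell in TAC WT relative to Sham WT by 0.62 (adjusted p = 0.001999).

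Foxo3, a transcription factor of atrophy and stress genes, rose in TAC KO relative to TAC WT by 0.56 (adjusted p = 0.00804, 0.63 after correction) with overlapping ranges, and fell in TAC WT relative to Sham WT by 0.45 (adjusted p = 0.03644). The call in TAC WT ended without any of 7 libraries (TAC WT 1, 3 and 4 and Sham WT 1 to 4), with adjusted p up to 0.103. The fourth substrate to rise in TAC KO relative to TAC WT was Acacb, the acetyl-CoA carboxylase that restrains mitochondrial fatty acid entry, by 0.52 (adjusted p = 0.01076, 0.57 after correction); it is named after its value was seen. The abundance of a transcript says nothing of the phosphorylation of its protein, which was not measured.

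Adenosine kinase, Adk, which turns adenosine back into AMP, had the same order of groups as Ckm. It had 153, 158, 152 and 164 CPM in TAC KO, against 109.0, 116, 115 and 97.4 CPM in TAC WT and 136, 126, 121 and 126 CPM in Sham WT. The 3 groups did not overlap in any pair. Of all tested genes, 13.3% had TAC KO wholly above TAC WT, 14.3% had TAC KO wholly above Sham WT, and 12.7% had TAC WT wholly below Sham WT. Adk rose in TAC KO relative to TAC WT by 0.52 (SE 0.06, adjusted p = 0.0001029; after GC and length correction 0.79) and relative to Sham WT by 0.30 (SE 0.06, adjusted p = 0.003801; after correction 0.59), and fell in TAC WT relative to Sham WT by 0.22 (SE 0.06, adjusted p = 0.02901). The decrease in TAC WT lost its call without Sham WT library 1, 2 or 4 or TAC WT library 1 or 4 (adjusted p up to 0.0924) and after GC and length correction (adjusted p = 0.0547).

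Of the 6 tested genes of AMP and adenosine turnover, Adk included, 1 rose and 1 fell in TAC KO relative to TAC WT, 1 rose relative to Sham WT, and 1 rose and 1 fell in TAC WT relative to Sham WT, with median log2 fold changes of -0.05, 0.11 and 0.05. Against 15.7% and 17.3%, 12.8% and 14.8%, and 9.67% and 10.0% of all tested genes risen and fallen, single genes of 6 are near those shares. Ampd2, an AMP deaminase, fell in TAC KO relative to TAC WT by 0.31 (adjusted p = 0.03371, -0.36 after correction), a call lost without any of 6 libraries (TAC KO 1, 2 and 4 and TAC WT 1, 3 and 4), with adjusted p up to 0.0838. Ada, adenosine deaminase, had 0.954 to 1.36 CPM in TAC WT and 0.543 to 0.862 in Sham WT, and rose in TAC WT by 0.74 (adjusted p = 0.04416 in edgeR, 0.0512 in DESeq2), a call that also ended without any of 6 libraries (TAC WT 1, 3 and 4 and Sham WT 2, 3 and 4), with adjusted p up to 0.124.

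Of 6 mitochondrial carriers and pores that pass ATP, ADP and phosphate, 3 rose in TAC KO relative to TAC WT, 1 rose relative to Sham WT, and 2 fell in TAC WT relative to Sham WT, with median log2 fold changes of 0.20, 0.06 and -0.20. The shares of all tested genes were 15.7% and 12.8% risen in those TAC KO comparisons and 10.0% fallen in TAC WT, and the 1 of 6 relative to Sham WT is near its share. Slc25a4, the adenine nucleotide carrier of heart and muscle, had 5305, 5267, 5583 and 5776 CPM in TAC KO, against 4208, 4518, 4871 and 4360 CPM in TAC WT and 5507, 4902, 5019 and 4770 CPM in Sham WT. It rose in TAC KO relative to TAC WT by 0.29 (SE 0.07, adjusted p = 0.006687), and this call ended after GC and length correction (log2 0.17, adjusted p = 0.0657). The outer-membrane pore Vdac1 rose by 0.27 in that comparison (adjusted p = 0.008807; after GC and length correction 0.16, adjusted p = 0.081). The phosphate carrier Slc25a3 rose by 0.24 (adjusted p = 0.02062, 0.35 after correction), but not without TAC KO library 4 or TAC WT library 1 (adjusted p up to 0.0607).

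Vdac1 and Slc25a3 each fell by 0.24 in TAC WT relative to Sham WT (adjusted p = 0.02261 and 0.03009). Vdac1 lost this call without Sham WT library 1 or 2 or TAC WT library 4, and Slc25a3 without Sham WT library 1, 2 or 3 or TAC WT library 1 or 4, with adjusted p up to 0.0711 and 0.1. Slc25a5, the adenine nucleotide carrier of dividing and non-muscle cells, rose in TAC KO relative to Sham WT by 0.34 (adjusted p = 0.006045, 0.24 after correction). Of the 6 tested genes of creatine synthesis, creatine uptake and creatine kinases, which are those described above, 2 rose in TAC KO relative to TAC WT, 4 rose relative to Sham WT, and 1 fell in TAC WT relative to Sham WT, with median log2 fold changes of 0.31, 0.34 and 0.00. The shares of all tested genes called in those directions were 15.7%, 12.8% and 10.0%.

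The genes whose levels ran most like each of the 7 were taken by Pearson's r of log2(CPM + 0.5) over the 12 libraries, which include the differences between groups and each library's base composition. For Ckm they were Adk (r = 0.985), Klhdc8a (0.980) and Gpr180 (0.976), and within groups, after each group's mean was taken out, r was 0.865, 0.846 and 0.823. For Ak1 they were Uqcc1, Steap3 and Asb2 (r = 0.973 to 0.974, and 0.915 to 0.923 within groups). Prkaa2 ran with Twsg1, Cep68 and Dlg1 (0.939 to 0.942), and Slc6a8 with Lonp1 and Stradb (0.921 and 0.918). Gamt ran with Dctn2, Arf5 and Map1s (0.936 to 0.937), Ckb with Psmg4, Timm17a and Cyth2 (0.893 to 0.914), and Ckmt2 with Tmem242, Blvra and Coprs (0.893 to 0.899). Among the 7 genes themselves the highest r was that of Ckm and Ak1 (0.905), and the lowest that of Gamt and Prkaa2 (-0.877). Ckm and Ckmt2 had an r of 0.700, and Ckm and Slc6a8 one of 0.335.

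Other genes overlap the exons of Ckm and Ckmt2 on the opposite strand. A930016O22Rik shares 451 bases with Ckm, 15.5% of its exons, and had 865 counts over all libraries. 1700119I11Rik shares 84 bases with Ckmt2, 5.65% of its exons, and had 30 counts. The libraries were made with a strand-marking kit, but the strand setting of the counting is not given in the sources used here.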

How the data were processed

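Polyadenylated RNA of 12 mouse heart libraries, 4 per group, was prepared from 250 ng of total RNA with a directional kit, per the labels' protocols. The deposited values were raw whole-number counts per gene. The submitters' processing notes name the aligner STAR, the counter featureCounts 1.6.4, StringTie 1.3.5, DESeq2, bcl2fastq, Trim Galore 0.5.0, the quality tools MultiQC 1.7 and FastQC 0.11.8, and the build GRCm38; their settings, the annotation release and the strand setting are not given in the sources used here. Identifiers were matched to GENCODE M21, which named 54079 of 54146 records; 67 had no symbol.

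Replicates were numbered in accession order. Totals ranged from 26288519 to 35945770 counts; limits from counts of 0 cover counting error only. CPM used TMM-scaled library sizes. Counts were tested in R 4.3.3 with edgeR 4.0.16 (TMM, filterByExpr, quasi-likelihood F-test, all 12 libraries in 1 fit, Benjamini-Hochberg over 15477 genes); the common biological coefficient of variation was 0.113. The standard error (SE) is the fold change divided by the square root of F. Near copies were sought with minimap2 among GENCODE transcripts.

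The 21 alternatives were DESeq2 1.42.0, voom with quality weights in limma 3.58.1, scaling by upper quartile or by RLE, mitochondrially encoded genes left out, no low-count filter, at least 1 CPM in 4 libraries, only the 2 groups compared, GC and length trends removed (splines with 5 degrees of freedom, as offsets), and each library left out in turn. The scripts were tested on simulated data. All 7 genes are named in every comparison, and of each of 7 pathway lists at most 3 other genes with the smallest p per comparison; the 3 genes most like each had to reach a mean of 1 CPM. The 7 genes, the pathway lists and the 10 marker lists were chosen with earlier results of these data known. A few genes that these rules name are not reported here.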

Additional observations from a re-analysis of the deposited data

How the results depend on the processing

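All 21 alternatives were run. Over them the fold changes of the 7 genes kept direction and side of the threshold in 405 cases, gained a call in 11, lost it in 16 and changed sign in 9. The sign changed with GC and length trends removed for Prkaa2 in TAC KO relative to TAC WT (0.08) and to Sham WT (0.02), and for Ckmt2 (-0.02) and Ak1 (-0.05) in TAC KO relative to Sham WT. None of these was a call, and the cause was not tested. In TAC WT relative to Sham WT, leaving out a library moved uncalled fold changes of Ckmt2 between -0.08 and 0.02, of Ckb between -0.03 and 0.09 and of Prkaa2 between -0.12 and 0.04. The number of the 7 that fell was 1 in TAC KO relative to Sham WT when only the 2 groups were fitted. The number that rose in TAC WT relative to Sham WT was 1 with DESeq2 and 1 with voom. Leaving out a library gave 0 to 1 fallen in TAC KO relative to TAC WT and 0 to 1 relative to Sham WT, and 0 to 1 risen and 1 to 2 fallen in TAC WT relative to Sham WT. In the same fits 2 to 4 rose in TAC KO relative to TAC WT. The rise of Ckb in TAC KO relative to Sham WT lost its call in 5 of them. Calls of named pathway genes were kept in 631 cases and lost in 61. No alternative moved a count over all tested genes by more than 1.5 times. The labels name no pairing between libraries, and no paired analysis was run. Gamt, at 3.14 to 6.56 CPM, has the least depth of the 7.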
